A study of Mus musculus with 9 samples.

Results

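The proteasome genes described here are the 43 genes whose symbols run from Psma to Psmg followed by a number, with the immunoproteasome genes Psmb8, Psmb9 and Psmb10 left out and with at least 10 counts summed over the 9 libraries. They are 43 of the 55536 genes in the deposited tables. Of 48 symbols with that form, 3 were the immunoproteasome genes and 2 fell under the minimum, Psma8 with 6 counts and Psmb11 with 3 counts. All 43 are protein coding, they lie on 16 chromosomes, and all 43 were among the 14384 genes that passed the filter on low counts. By function they are 7 alpha ring subunits, 7 beta ring subunits, 6 ATPases and 3 other subunits of the base, 8 lid subunits, 3 assembly chaperones of the regulatory particle, 4 assembly chaperones of the core particle, and 5 activators and inhibitors. The first 5 of these groups are the 31 subunits of the core and regulatory particles, and the other 12 genes are not subunits of them.

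The proteasome degrades proteins that carry chains of ubiquitin. Its core particle is a barrel of stacked rings, in which the beta rings hold the proteolytic sites and the alpha rings gate the entry, and its regulatory particle binds, unfolds and feeds in the substrate. In skeletal muscle the ubiquitin-proteasome system breaks down myofibrillar proteins, and transcripts of many proteasome subunits are known to be higher in wasting muscle, together with the muscle ubiquitin ligases Fbxo32 (atrogin-1) and Trim63 (MuRF1).

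Total RNA was sequenced from muscle of male mice of the outbred ICR stock, in 9 libraries. Young vehicle libraries 2, 3 and 4 came from mice of 2 months given the vehicle, aged vehicle libraries 1, 3 and 4 from mice of 18 months given the vehicle, and aged GW8510 libraries 1, 3 and 4 from mice of 18 months given GW8510, and values by library follow this order. GW8510 is a benzenesulfonamide that the series title links to the p21-activated kinases. It was injected intraperitoneally at 2 mg/kg each day for 14 days in sodium carboxymethylcellulose. Neither the muscle nor whether the libraries are different animals is stated in the labels, so a p-value here reflects sample-to-sample spread that may be technical. There was no young group with GW8510.

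Library totals ran from 21718930 to 27437937 expected counts. Levels are CPM, the counts divided by the TMM-adjusted library size, or deposited TPM, which also divides by transcript length, where genes are compared with each other. Aged vehicle library 4 held the highest level of 23.2% and the lowest level of 24.1% of the 14384 genes tested. Young vehicle library 2 held the lowest level of 15.0%, and among the other 8 libraries aged GW8510 library 1 held the highest level of 18.2%. In aged vehicle library 4 the 5 B and plasma cell markers summed to 27.6 CPM (0.123 to 1.32 CPM in the others, 5 of 5 highest). There the 5 T and NK cell markers summed to 1.82 CPM (0 to 0.222 CPM, 5 of 5 highest) and the 5 satellite cell markers to 73.4 CPM (18.9 to 27.8 CPM, 2 of 5 highest and 1 lowest). Of this last sum Cdh15 gave 64.9 CPM (13.7 to 20.6 CPM in the others), while Pax7, the defining satellite cell marker, was lowest in library 4 at 0.303 CPM (0.592 to 1.88 CPM). Its 8 fibroblast markers summed to 75.9 CPM (240 to 2625 CPM, 8 of 8 lowest), its 8 endothelial markers to 237 CPM (258 to 485 CPM, 6 of 8 lowest), its 6 smooth muscle markers to 133 CPM (312 to 447 CPM, 5 of 6 lowest), and its 12 muscle fibre markers to 112880 CPM (119213 to 171807 CPM, 5 of 12 lowest and 2 highest, Des and Ttn). The 6 tendon markers of library 4 summed to 39.2 CPM (57.96 to 328 CPM in the others, 4 of 6 lowest), and Scx and Mkx were not lowest in it. The tendon marker Comp was at 0 in that library, but it was also as low as 0.136 CPM in aged GW8510 library 1. This 0 therefore does not set library 4 apart. In bulk tissue, fewer cells of a type and less RNA per cell cannot be told apart. The part of these differences in the results was not tested, and each result that rests on that library is given with and without it.

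Each of the 31 core and regulatory particle subunits had its highest level in aged vehicle library 4, while 8 of the 12 assembly chaperones, activators and inhibitors did not. The summed level of the 43 genes was 8903 TPM in that library and between 3291 and 4180 TPM in the others, and their share of all counts was 0.952% there and between 0.373% and 0.476% elsewhere. The subunits summed to 8568 TPM in library 4 and to between 3059 and 3916 TPM in the others, and the other 12 genes to 335 TPM and to between 232 and 295 TPM. Library 4 held the highest of the 9 levels for 35 of the 43 genes, against 23.2% of all genes tested. These 35 included all 31 subunits of the core and regulatory particles, and each of the 31 was highest in it with TMM factors, with RLE factors, with library totals and on deposited TPM. Relative to the median of the other 8 libraries, the level in library 4 was a median of 2.16 times as high for the 31 subunits, 1.16 times for the other 12 genes and 0.986 times for all genes tested (interquartile range 0.701 to 1.30). It was at least 1.5 times as high for 31 of the 43 genes (15.8% of all genes tested) and at least 2 times for 18 of the 43 (6.24%). Among genes with a mean of at least 30 CPM in the other 8 libraries the counts were 30 of 34 proteasome genes at 1.5 times (17.6% of 3558 genes) and 18 of 34 at 2 times (5.54%). Among these more abundant genes library 4 was the highest of 9 for 32 of 34 proteasome genes, against 32.7% of the 3558.

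**Figure D1:**
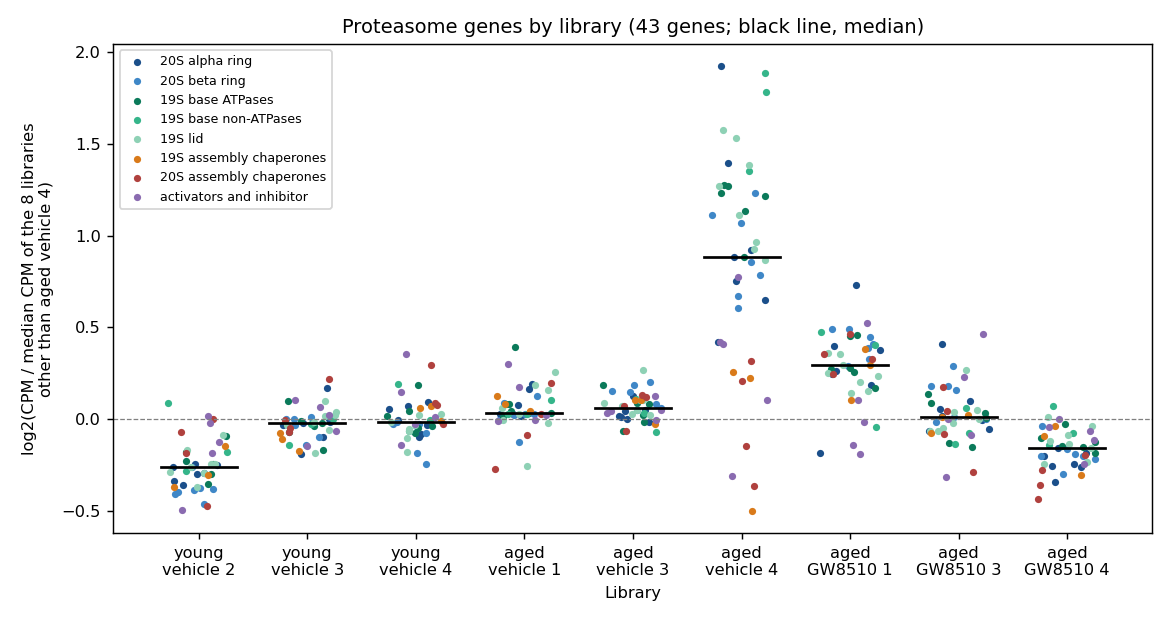
Level of each of the 43 proteasome genes in each of the 9 libraries, as log2 of the CPM over the median CPM of the 8 libraries other than aged vehicle 4. Each point is a gene coloured by functional group and the black lines are medians of the 43 genes; the alpha ring, beta ring, base and lid genes of aged vehicle 4 all lie above 0, and its assembly chaperones (orange and red) lie on both sides of 0.

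The alpha ring forms the outer rings of the core barrel, and library 4 was highest for all 7 of its genes. By mean TPM over the 8 libraries other than aged vehicle 4, the alpha ring genes ran from 38.6 TPM for Psma2 to 162 TPM for Psma6, with a median of 113 TPM. Psma7 (ENSMUSG00000027566, chr2:180036374-180042433) (GRCm38) stood at 78.7, 84.9 and 91.5 CPM in the young vehicle libraries, 102, 106 and 367 CPM in the aged vehicle libraries and 161, 129 and 85.4 CPM in the aged GW8510 libraries. The level in aged vehicle library 4 was 3.79 times the median of the other 8, the largest such ratio of the 43 genes, and aged GW8510 library 1 was the next highest. Psma4 stood at 80.9, 97.9 and 103 CPM in the young vehicle libraries, 111, 99.9 and 260.4 CPM in the aged vehicle libraries and 131, 94.6 and 82.7 CPM in the aged GW8510 libraries, with library 4 at 2.63 times the median. Psma2 stood at 60.8, 77.0 and 72.8 CPM in the young vehicle libraries, 79.5, 78.9 and 122 CPM in the aged vehicle libraries and 88.7, 81.0 and 65.3 CPM in the aged GW8510 libraries, so the ring's least abundant member was also highest in library 4, by 1.57 times. Psma1, Psma3, Psma5 and Psma6 had ratios of 1.34, 1.68, 1.85 and 1.90, and the 1.34 of Psma1 was the smallest of the 31 subunits.

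The beta ring genes had the highest median level per transcript length of the 8 functional groups, 145 TPM over the 8 libraries. Psmb7, which encodes the trypsin-like catalytic subunit, was the most abundant of all 43 genes, with 240.4, 286 and 269.6 TPM in the young vehicle libraries, 282, 266 and 486 TPM in the aged vehicle libraries and 317, 234 and 239 TPM in the aged GW8510 libraries. The other catalytic subunits were Psmb6 (caspase-like), at a mean of 245 TPM over the 8 libraries, and Psmb5 (chymotrypsin-like, the main target of proteasome inhibitor drugs), at 145 TPM. The 3 catalytic genes had the 3 smallest ratios of the ring in library 4, 1.52 for Psmb6, 1.60 for Psmb7 and 1.73 for Psmb5. The structural subunits Psmb1, Psmb2, Psmb3 and Psmb4 had ratios of 2.10, 1.81, 2.35 and 2.16, so all 4 lay above the catalytic genes. Psmb1 stood at 112, 133 and 124 CPM in the young vehicle libraries, 160.3, 168 and 308 CPM in the aged vehicle libraries and 206, 166 and 126 CPM in the aged GW8510 libraries. Psmb3 stood at 68.7, 85.0 and 79.9 CPM in the young vehicle libraries, 96.8, 101 and 213 CPM in the aged vehicle libraries and 128, 103 and 79.1 CPM in the aged GW8510 libraries. Psmb2, at 101 TPM next to the least abundant of the ring (Psmb1, 100.3 TPM), stood at 43.7, 56.9 and 53.9 CPM in the young vehicle libraries, 56.7, 64.7 and 103 CPM in the aged vehicle libraries and 77.3, 69.6 and 55.5 CPM in the aged GW8510 libraries. In each of these 3 genes the library 4 value was the highest of 9, aged GW8510 library 1 was second and young vehicle library 2 was lowest.

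The 6 ATPases form the ring of the base that unfolds the substrate and opens the gate of the core. They had a median of 87.7 TPM over the 8 libraries, from 56.8 TPM for Psmc6 to 157 TPM for Psmc3, and their ratios in library 4 lay between 1.84 (Psmc5) and 2.42 (Psmc4). Psmc3 stood at 150.2, 167 and 171 CPM in the young vehicle libraries, 186, 186 and 408 CPM in the aged vehicle libraries and 242, 179.9 and 161 CPM in the aged GW8510 libraries. Psmc4 stood at 59.2, 81.2 and 78.3 CPM in the young vehicle libraries, 76.3, 75.1 and 183 CPM in the aged vehicle libraries and 90.5, 69.2 and 66.8 CPM in the aged GW8510 libraries. For both, library 4 lay above the other 8 libraries, whose highest value was that of aged GW8510 library 1. Psmc6 stood at 85.5, 86.3 and 93.8 CPM in the young vehicle libraries, 127, 98.5 and 227 CPM in the aged vehicle libraries and 132, 107 and 95.0 CPM in the aged GW8510 libraries. All 3 aged vehicle libraries and all 3 aged GW8510 libraries lay above the highest young library for this gene. Psmc1 stood at 103, 121 and 115 CPM in the young vehicle libraries, 129, 138 and 267 CPM in the aged vehicle libraries and 137, 122 and 109 CPM in the aged GW8510 libraries, and its 3 aged vehicle values lay above the 3 young values.

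The 3 other base subunits are a ubiquitin receptor and the scaffolds of the base, and their median ratio in library 4, 3.44, was the highest of the 8 functional groups. Psmd4, a ubiquitin receptor (ENSMUSG00000005625, chr3:95032694-95042614), stood at 104, 114 and 121 CPM in the young vehicle libraries, 136, 136 and 466 CPM in the aged vehicle libraries and 175, 132 and 115 CPM in the aged GW8510 libraries, and library 4 was 3.70 times the median of the others. Psmd2, a scaffold that docks ubiquitin shuttle factors (ENSMUSG00000006998, chr16:20651652-20663414), stood at 191, 216 and 216 CPM in the young vehicle libraries, 221, 221 and 744 CPM in the aged vehicle libraries and 286, 205 and 205 CPM in the aged GW8510 libraries. Without library 4 its other values spanned 191 to 286 CPM, and library 4 was 3.44 times their median. Psmd1, the related scaffold, stood at 138, 127 and 148 CPM in the young vehicle libraries, 132, 124 and 331 CPM in the aged vehicle libraries and 126, 119 and 137 CPM in the aged GW8510 libraries. Its other 8 values were the least spread of the 31 subunits, with the highest 1.25 times the lowest, and library 4 was 2.55 times their median.

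The lid subunits had a median of 66.5 TPM over the 8 libraries and a median ratio of 2.28 in library 4. Psmd8 (ENSMUSG00000030591, chr7:29174188-29180701), the most abundant lid gene at 194 TPM, stood at 159, 181 and 182 CPM in the young vehicle libraries, 229.9, 248 and 613 CPM in the aged vehicle libraries and 265, 248 and 175 CPM in the aged GW8510 libraries. The 3 aged vehicle values lay above the 3 young values, and library 4 was 2.98 times the median of the others. Psmd11, which braces the regulatory particle against the core (ENSMUSG00000017428, chr11:80428615-80473248), stood at 86.5, 102 and 95.6 CPM in the young vehicle libraries, 122, 110.2 and 297 CPM in the aged vehicle libraries and 114, 98.1 and 103 CPM in the aged GW8510 libraries, a ratio of 2.89. Psmd14, the deubiquitinase that removes ubiquitin chains before degradation, was the least abundant lid gene at 42.5 TPM, and it stood at 44.0, 56.6 and 53.5 CPM in the young vehicle libraries, 52.0, 56.0 and 114 CPM in the aged vehicle libraries and 64.7, 51.1 and 48.7 CPM in the aged GW8510 libraries. Library 4 was the highest of 9 for each of these 3 lid genes. Psmd7, the structural partner of Psmd14, stood at 127, 158 and 148 CPM in the young vehicle libraries, 177, 163 and 283 CPM in the aged vehicle libraries and 185, 153 and 146 CPM in the aged GW8510 libraries. Psmd3, another lid subunit, stood at 109.6, 118 and 118 CPM in the young vehicle libraries, 128, 127 and 296 CPM in the aged vehicle libraries and 141, 127 and 112 CPM in the aged GW8510 libraries. Both were highest in library 4, and their other aged vehicle values also lay above the young values. Psmd6, Psmd12 and Psmd13 had ratios of 2.61, 1.90 and 1.95.

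**Figure D2:**
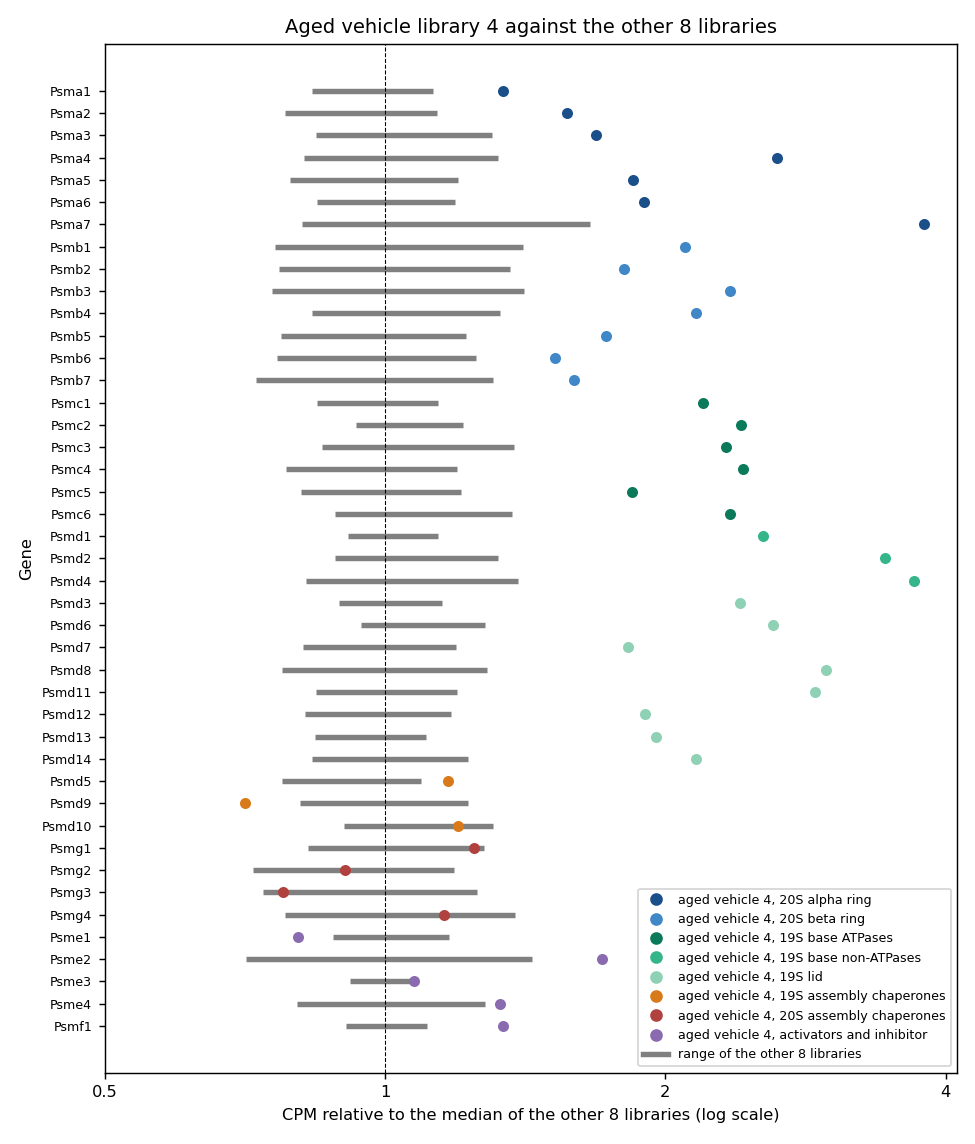
CPM of aged vehicle library 4 (points, coloured by functional group) for each of the 43 genes relative to the median of the other 8 libraries, with the range of those 8 libraries as grey bars, on a log axis. All 31 subunit genes lie to the right of their grey bar, and 8 of the other 12 genes lie within or to the left of theirs.

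Assembly chaperones, which help to build the particle and are not part of the finished complex, were expressed at lower levels than the subunits and had median ratios in library 4 of 1.17 for the regulatory particle and 1.03 for the core particle. The chaperones of the regulatory particle had a median of 7.22 TPM and those of the core particle 18.9 TPM over the 8 libraries, against a median of 101 TPM for the 31 subunits. Psmd9, the least abundant of the 43 genes at 6.54 TPM, stood at 9.67, 10.6 and 12.4 CPM in the young vehicle libraries, 12.3, 11.7 and 8.44 CPM in the aged vehicle libraries and 14.7, 12.1 and 11.6 CPM in the aged GW8510 libraries, and library 4 held its lowest value. Psmd5 stood at 15.9, 19.5 and 20.4 CPM in the young vehicle libraries, 22.4, 22.1 and 23.9 CPM in the aged vehicle libraries and 22.0, 20.7 and 16.6 CPM in the aged GW8510 libraries, where library 4 was highest by a narrow margin over aged vehicle libraries 1 and 3. Psmd10 (gankyrin) had a ratio of 1.20 and was highest in aged GW8510 library 1. Of the core chaperones, Psmg1 stood at 7.35, 7.35 and 7.56 CPM in the young vehicle libraries, 7.85, 8.46 and 9.61 CPM in the aged vehicle libraries and 9.84, 8.72 and 6.36 CPM in the aged GW8510 libraries. Its partner Psmg2 stood at 16.1, 21.6 and 23.6 CPM in the young vehicle libraries, 25.6, 21.4 and 20.3 CPM in the aged vehicle libraries and 26.5, 23.1 and 19.5 CPM in the aged GW8510 libraries. Both were highest in aged GW8510 library 1. Psmg3 and Psmg4 form another pair and had ratios of 0.778 and 1.16, and library 4 was the highest of 9 in none of the 4 core chaperones.

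Activators cap the core particle in place of the regulatory particle. Psme1 and Psme2 encode the subunits of the interferon-inducible activator PA28, and they differed in library 4. Psme1, the most abundant gene of this group at 51.0 TPM, stood at 37.7, 46.1 and 43.1 CPM in the young vehicle libraries, 42.5, 43.8 and 34.5 CPM in the aged vehicle libraries and 37.6, 50.1 and 39.6 CPM in the aged GW8510 libraries, with library 4 lowest of 9. Psme2 stood at 15.1, 19.2 and 19.3 CPM in the young vehicle libraries, 24.0, 23.2 and 36.4 CPM in the aged vehicle libraries and 30.5, 29.3 and 17.9 CPM in the aged GW8510 libraries, with library 4 highest of 9 and 1.71 times the median of the others. Psme3, the nuclear relative of these activators, had a ratio of 1.07. Psme4 (PA200), a nuclear activator, stood at 249, 236 and 315 CPM in the young vehicle libraries, 303, 255 and 327 CPM in the aged vehicle libraries and 243, 198 and 239 CPM in the aged GW8510 libraries, and its library 4 value was 1.33 times the median and close to that of young vehicle library 4. Psmf1, the inhibitor PI31, was the least abundant of this group at 7.18 TPM and stood at 15.1, 16.1 and 16.997 CPM in the young vehicle libraries, 15.3, 15.8 and 20.5 CPM in the aged vehicle libraries and 13.9, 15.4 and 14.7 CPM in the aged GW8510 libraries, with library 4 highest.

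**Figure D3:**
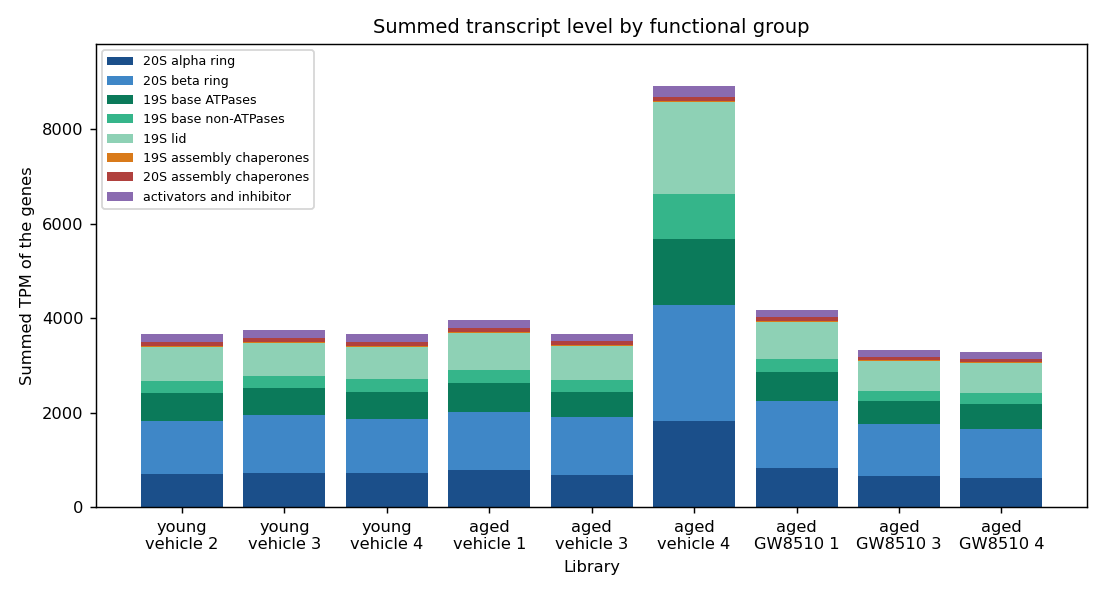
Summed deposited TPM of the 43 genes in each of the 9 libraries, stacked by functional group. The aged vehicle 4 bar reaches 8903 TPM and the other 8 bars lie between 3291 and 4180 TPM; alpha ring, beta ring, base and lid genes make up most of every bar.

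The first comparison asked how 18-month and 2-month vehicle-treated muscle differ. No proteasome gene passed the threshold with age (0 of 43 with an adjusted p under 0.05, by the quasi-likelihood test of edgeR with Benjamini-Hochberg adjustment), where 1.22% of all genes tested did. The fitted log2 fold change was above 0 for 40 of 43 genes (51.2% of all genes) and for 39 with library totals, where Psmg4 turned below 0. Its median was 0.50 against 0.010 over all genes tested, with a range of -0.24 to 1.17. Without adjustment, 13 genes had p under 0.05, all of them higher in aged muscle, against 9.07% of all genes tested in that direction. limma-voom called 0 of the 43 and 1.08% of all genes. DESeq2 called 1 of the 43, Psmd8, and 6.77% of all genes.

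Leaving out aged vehicle library 4 lowered these differences. The median log2 fold change of the 43 genes was then 0.16, with 37 of 43 above 0 (49.2% of all genes) and 0 past the threshold (smallest edgeR adjusted p = 0.284), where 0.963% of all genes tested passed. Without adjustment, 1 gene had p under 0.05, Psmd8, against 6.21% of all genes in that direction. For the 31 subunits the median was 0.54 with all libraries and 0.17 without library 4, and for the other 12 genes it was 0.12 and 0.10. By functional group the medians with all libraries were 0.44 for the alpha ring, 0.54 for the beta ring, 0.64 for the ATPases, 0.93 for the other base subunits and 0.60 for the lid. They were 0.21 for the regulatory particle chaperones, 0.068 for the core chaperones and 0.099 for the activators and inhibitor. Without library 4 the 5 subunit groups had medians between 0.087 and 0.19.

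The gene with the smallest p with age was Psmd8, at 364 ± 216 CPM in aged against 174 ± 12.8 CPM in young vehicle muscle (mean ± SD, n = 3 each). Its log2 fold change was 1.06 (SE 0.35) with edgeR adjusted p = 0.159, and 0.45 (SE 0.18) with adjusted p = 0.284 without library 4. With DESeq2 its log2 fold change was 1.07 and the adjusted p = 0.0400, and over all alternatives its adjusted p ran from 0.0400 to 0.462. Among the structural core subunits, Psmb1 had a log2 fold change of 0.79 (SE 0.27) and Psmb3 of 0.82 (SE 0.31), which became 0.42 and 0.34 without library 4. The ATPase genes Psmc6 and Psmc1 had 0.77 (SE 0.28) and 0.66 (SE 0.26), and 0.35 and 0.24 without it. Among the other named subunits, Psmd11 had 0.90 (SE 0.33), Psmd4 1.12 (SE 0.43), Psma7 1.17 (SE 0.46) and Psmd7 0.53 (SE 0.22). Without library 4 these log2 fold changes were 0.30, 0.27, 0.29 and 0.24. The activator gene Psme2 had 0.64 (SE 0.25) and, without library 4, 0.40. None of these 10 genes, which had the smallest p of the 43, passed the threshold (edgeR adjusted p from 0.159 to 0.235).

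For 23 of the 43 genes every aged vehicle library lay above every young library, against 12.7% of all genes tested, and for 0 every aged vehicle library lay below (13.5%). Without library 4, 23 of the 43 also had both remaining aged vehicle values above the young values, against 17.8% of all genes. The count with all 3 aged vehicle libraries depended on the scaling. It was 23 with RLE factors, 15 with library totals alone and 9 on deposited TPM, where 2 genes lay below. Young vehicle library 2 was the lowest of 9 for 32 of the 43 genes with TMM factors (15.0% of all genes tested), for 35 with RLE factors, for 8 with library totals and for 2 on TPM, and its TMM factor was the highest of the 9, at 1.11.

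The second comparison asked how GW8510 treatment altered aged muscle. No proteasome gene passed (edgeR, 0 of 43), and 0.0% of the 14384 genes tested did. DESeq2 and limma-voom called 0 of the 43, and 0.0695% and 0.0% of all genes. Without adjustment, 1 proteasome gene had p under 0.05, Psmd11, lower with GW8510, against 1.79% of all genes tested in that direction. The fitted log2 fold change was below 0 for 39 of the 43 genes, including all 31 subunits, and for 40 with library totals, where Psmg2 turned. It was above 0 for the other 4, against 50.9% of all genes, and its median was -0.35 against 0.0053 over all genes tested. Without aged vehicle library 4 the median was -0.017, with 20 genes above 0 (51.5% of all genes) and 23 below. There were then 0 with an adjusted p (edgeR) or an unadjusted p under 0.05, against 0.0% and 3.09% of all genes. For the 31 subunits the median was -0.41 with all libraries and 0.0024 without library 4, and for the other 12 genes it was -0.050 and -0.025.

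Psmd11 had a log2 fold change of -0.74 (SE 0.33) with edgeR adjusted p = 0.934, which was -0.16 (SE 0.14) without library 4. Its adjusted p over all alternatives ran from 0.453 to 1. Psmd4 and Psmd2, the base subunits with high library 4 values, had -0.81 (SE 0.43) and -0.77 (SE 0.42), and 0.033 and 0.059 without library 4, so their sign turned. Psmd8 had -0.66 (SE 0.35), Psmd1 -0.62 (SE 0.33) and Psma4 -0.61 (SE 0.34), against -0.070, -0.021 and -0.053 without it. Psmc4, Psmc1 and Psmd3 had -0.56 (SE 0.33), -0.54 (SE 0.26) and -0.53 (SE 0.30), against -0.018, -0.14 and -0.022. Psme4 differed from these subunits in keeping most of its fitted value, at -0.38 (SE 0.17) with all libraries and -0.31 (SE 0.18) without library 4. Its 3 aged GW8510 values, 198 to 243 CPM, lay below its 3 aged vehicle values, 255 to 327 CPM, and its edgeR adjusted p was 0.934. The only other gene with no overlap was Psmd5, whose aged GW8510 values reached 22.05 CPM and whose lowest aged vehicle value was 22.07 CPM. Together 2 of the 43 genes had every treated library below every aged vehicle library, against 3.33% of all genes tested, and 0 had them above (3.89%).

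**Figure D4:**
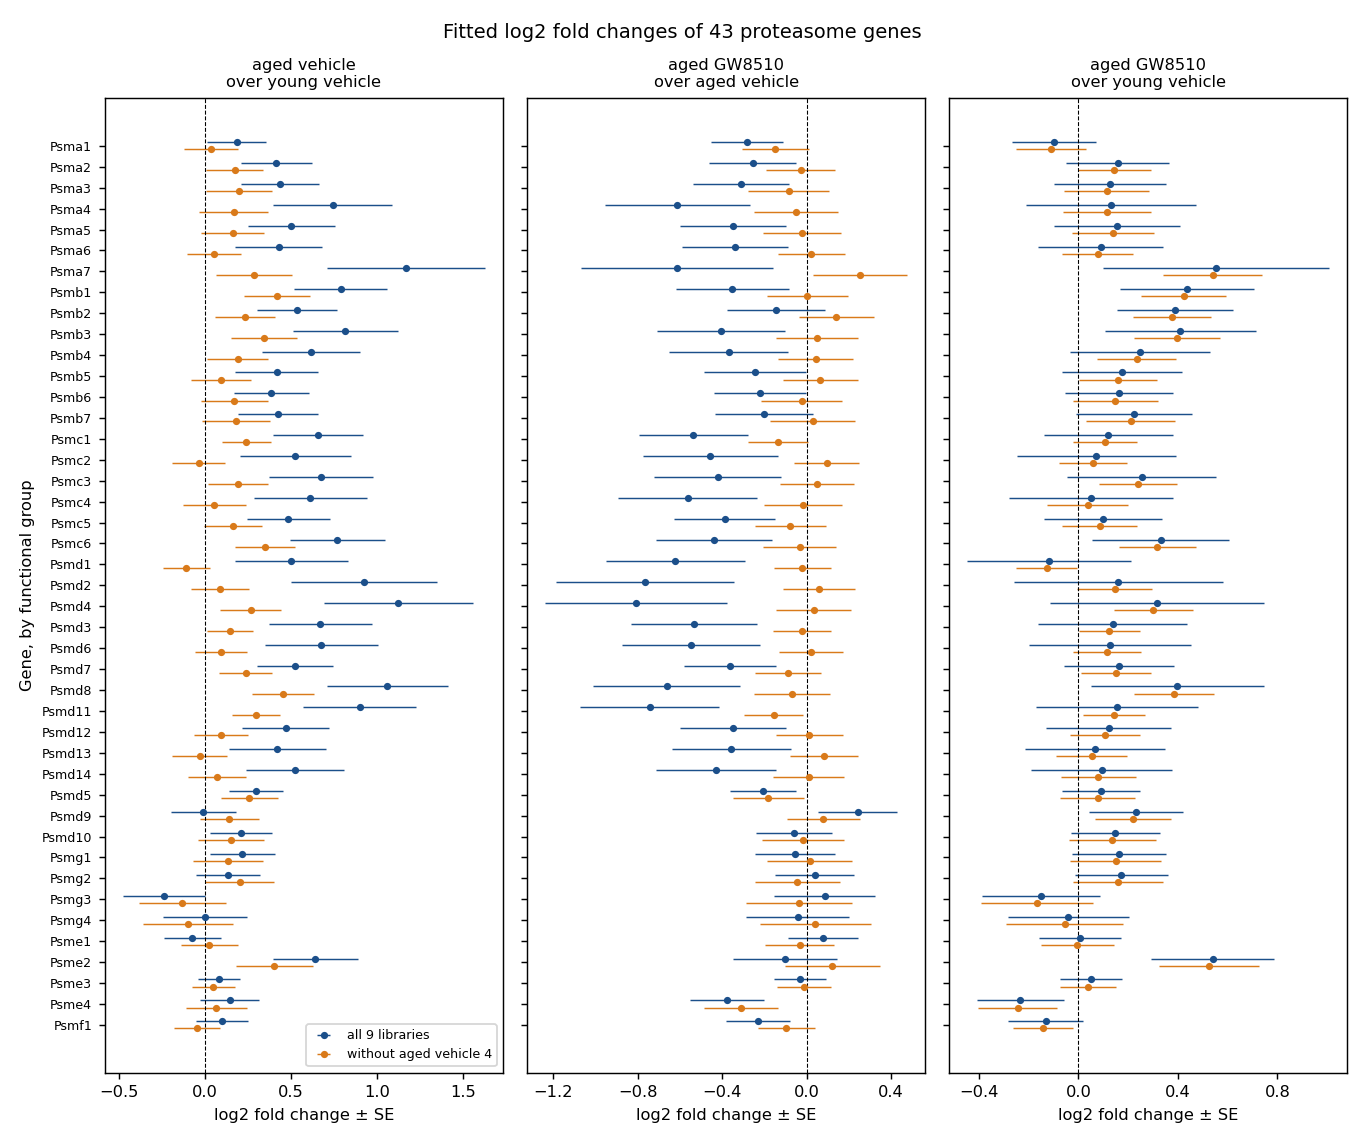
Fitted log2 fold change ± SE of each of the 43 genes in the 3 comparisons, with all 9 libraries (blue) and without aged vehicle library 4 (orange). Without that library the median moves from 0.50 to 0.16 with age, from -0.35 to -0.017 for GW8510 over aged vehicle and from 0.15 to 0.14 for GW8510 over young vehicle.

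The third comparison set GW8510-treated aged muscle beside young vehicle muscle. It does not contrast the aged vehicle libraries, but they enter the gene filter, the scaling and the shared estimate of the spread. No proteasome gene passed (edgeR, 0 of 43), where 0.751% of all genes tested did. DESeq2 and limma-voom also called 0 of the 43, and 6.05% and 0.73% of all genes. Without adjustment, 0 of the 43 had p under 0.05, against 16.7% of all genes tested in either direction. The median log2 fold change was 0.15, against 0.012 over all genes tested. It was above 0 for 37 of 43 genes (51.3% of all genes) and for 32 with library totals, where Psmc2, Psmc4, Psmd13, Psme1 and Psme3 turned. Without aged vehicle library 4 the median was 0.14, with 36 above 0 (49.9% of all genes), and 6 genes then had an unadjusted p under 0.05 (10.6% of all genes in that direction), still with 0 past the threshold and 4.01% of all genes past it. The 6 were Psma7, Psme2, Psmb1, Psmd8, Psmb2 and Psmb3, and their edgeR adjusted p ran from 0.158 to 0.227. The median was 0.021 without aged GW8510 library 1, 0.039 without young vehicle library 2, and 0.056 with library totals alone.

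Psme2 had the smallest p in this comparison, with a log2 fold change of 0.54 (SE 0.25) and edgeR adjusted p = 0.307. Aged GW8510 library 4, at 17.9 CPM, lay within the young range of 15.1 to 19.3 CPM, and the other treated libraries lay above it. The core genes Psmb1, Psmb2, Psmb3 and Psmb7 had 0.44 (SE 0.27), 0.39 (SE 0.23), 0.41 (SE 0.30) and 0.22 (SE 0.23). Psma7 had 0.55 (SE 0.45), Psmd8 0.40 (SE 0.35), and the chaperone gene Psmd9 0.23 (SE 0.19). Psme4 was lower in treated muscle, at -0.23 (SE 0.17). Psmc6, at 0.33 (SE 0.28), was the 1 gene of the 43 with every treated library above every young library, against 12.9% of all genes tested, and on TPM there were 0. For 0 of the 43 every treated library lay below (12.8%). The comparisons share libraries (aged vehicle in the earlier 2, young vehicle in the age and the last comparison), so their values are not independent.

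Among the 8 libraries other than aged vehicle 4, aged GW8510 library 1 held the highest level of 35 of the 43 genes, against 18.2% of all genes tested. It was the highest for 35 with RLE factors, 30 with library totals and 23 on TPM. Its summed level was 4180 TPM, against 3326 and 3291 TPM in aged GW8510 libraries 3 and 4, which were the lowest TPM sums of the 9. On TPM the treated group therefore held both the highest and the lowest summed levels of the 8 libraries. The young sums were 3667, 3743 and 3675 TPM, and aged vehicle libraries 1 and 3 were at 3969 and 3675 TPM. This order of the sums depended on the scaling. On CPM the young sums were 3452, 3992 and 4099 CPM, with young vehicle library 2 the lowest of the 9. The aged GW8510 sums were then 5047, 4166 and 3711 CPM. Within these 8 libraries the highest value of a gene was a median of 1.52 times its lowest, from 1.17 for Psme3 to 2.04 for Psma7.

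The immunoproteasome genes replace the catalytic beta subunits under interferon and were far less abundant than their constitutive counterparts. Psmb8, the counterpart of Psmb5, stood at 8.37, 6.21 and 5.73 CPM in the young vehicle libraries, 4.69, 6.01 and 15.6 CPM in the aged vehicle libraries and 7.17, 10.49 and 4.58 CPM in the aged GW8510 libraries, with a mean of 9.14 TPM over the 8 libraries against 145 TPM for Psmb5. Psmb9, the counterpart of Psmb6, stood at 3.76, 2.20 and 2.81 CPM in the young vehicle libraries, 1.71, 2.66 and 5.67 CPM in the aged vehicle libraries and 3.45, 3.76 and 1.87 CPM in the aged GW8510 libraries. Psmb10, the counterpart of Psmb7, stood at 8.34, 10.6 and 9.16 CPM in the young vehicle libraries, 8.47, 10.4 and 9.95 CPM in the aged vehicle libraries and 10.2, 10.97 and 7.96 CPM in the aged GW8510 libraries. Library 4 was highest of 9 for Psmb8 and Psmb9 and not for Psmb10. The log2 fold change of Psmb8 with age was 0.37 with all libraries and -0.34 without library 4. None of the 3 passed in any comparison (smallest edgeR adjusted p 0.681 with age, 0.973 for GW8510 over aged vehicle and 0.910 for GW8510 over young vehicle).

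Genes that work with the proteasome are described next, and those named outside the immunoproteasome were chosen after their values were seen. Of 17 other subunits, assembly factors and associated proteins, library 4 was highest for 11, against 23.2% of all genes tested. That share was 32.7% for genes with a mean of at least 30 CPM in the other 8 libraries. Relative to the median of the other 8, library 4 was at a median of 1.47 times for the 17 genes and 0.986 times for all genes tested. Adrm1, another ubiquitin receptor of the base, stood at 79.3, 86.4 and 90.1 CPM in the young vehicle libraries, 105, 99.8 and 249 CPM in the aged vehicle libraries and 120.4, 102 and 81.6 CPM in the aged GW8510 libraries. Pomp, the maturation factor of the core, stood at 49.9, 63.2 and 71.7 CPM in the young vehicle libraries, 71.0, 76.7 and 129.95 CPM in the aged vehicle libraries and 99.8, 62.6 and 55.4 CPM in the aged GW8510 libraries. Txnl1, a thioredoxin-like protein bound to the regulatory particle, and Usp14, a deubiquitinase on it, were at 179 and 97.4 CPM in library 4, against 68.0 to 93.9 and 42.7 to 57.0 CPM in the others. No gene of this list passed in any comparison (0 higher and 0 lower of 17), with all libraries or without library 4. Sem1, a small lid subunit, was highest in aged GW8510 library 1 rather than in library 4.

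The transcription factor Nfe2l1, which raises proteasome gene transcription when proteasome activity is short, stood at 437, 446 and 354 CPM in the young vehicle libraries, 493, 578 and 658 CPM in the aged vehicle libraries and 331, 436 and 512 CPM in the aged GW8510 libraries, highest in library 4. Of 7 genes of this control, which include Nfe2l1, its protease Ddi2 and the segregase Vcp, library 4 was highest for 4. The share was 23.2% of all genes tested and 32.7% of those with a mean of at least 30 CPM in the other 8 libraries. The count is not read as a result about the list. Ddi2 was not among the 4, at 90.5 CPM in library 4 and 93.4 CPM in aged vehicle library 1. Of the 7, 0 passed in any comparison. Of 6 muscle ubiquitin ligases listed, library 4 was highest for 3 (23.2% of all genes tested), a count not read as a result about the list. Fbxo32 was at 1535 CPM in library 4 and 213 to 339.7 CPM in the others, and Trim63 at 832 CPM and 143 to 233 CPM. Neither passed in any comparison by edgeR, and 0 of the 6 did. Fbxo40, another muscle ubiquitin ligase, was lowest in library 4, at 292 CPM against 347 to 452 CPM.

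Of 6 genes for ubiquitin and its activating enzymes, library 4 was highest for 3 (23.2% of all genes tested), a count not read as a result about the list. Ubb, a polyubiquitin gene, stood at 689, 772 and 725 CPM in the young vehicle libraries, 960.4, 874 and 1536 CPM in the aged vehicle libraries and 1288, 963 and 847 CPM in the aged GW8510 libraries. Ubb did not pass in any comparison by edgeR, with all libraries (smallest adjusted p 0.213) or without library 4 (0.130).

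Since the 31 subunit genes were highest together in 1 library, the stretches before their start sites were searched for motifs of factors known to act on proteasome or atrophy genes. RefSeq promoter windows (GRCm38.p6) were matched by symbol for 36 of the 43 genes, in 39 windows, and the 250 bases before the start were read on both strands. The antioxidant response element core TGACNNNGC, bound by Nfe2l1 and Nfe2l2, was in 5 of the 39 windows (12.8%) and in 10.2% of all 32851 windows. The genes were Psmb5, Psmb6, Psmc6, Psmd12 and Psmd9, and the stretches with the match follow, 5′ to 3′ on the strand of the gene, with the match in capitals.
Psmb5, chr14:54618009-54618067, minus strand: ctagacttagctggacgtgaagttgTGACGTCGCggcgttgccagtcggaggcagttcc
Psmb6, chr11:70525323-70525356, plus strand: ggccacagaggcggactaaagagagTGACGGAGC
Psmc6, chr14:45329574-45329630, plus strand: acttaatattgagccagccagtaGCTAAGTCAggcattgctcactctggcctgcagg
Psmd12, chr11:107479278-107479314, plus strand: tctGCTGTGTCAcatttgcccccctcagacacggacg
Psmd9, chr5:123228134-123228189, plus strand: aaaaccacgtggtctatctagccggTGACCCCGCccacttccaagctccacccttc
In Psmc6 and Psmd12 the match reads on the other strand. The matches began 47 bases before the start in Psmb5, 9 in Psmb6, 227 in Psmc6, 247 in Psmd12 and 31 in Psmd9. The level in aged vehicle library 4 relative to the other 8 was a median of 1.73 for the 5 genes with a match. It was 1.90 for the 31 of the 36 genes without one, which are not the 31 subunits. Both sets mix subunits with other genes, such as Psmd9 with a match and Psmd10 without one. Of the 5 genes with a match, 4 were highest in library 4, and Psmd9 was lowest in it.

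The forkhead motif GTAAACA, bound by the FOXO factors that act on Fbxo32 and Trim63, was in 0 of the 39 windows and in 3.17% of all windows. The CCAAT box was in 12 of the 39 windows (30.8%) and in 33.8% of all windows, and the library 4 ratio was a median of 2.03 for the 12 genes with it and 1.84 for the 24 without it. These matches describe the letters of the windows only.

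In the authors' deposited tables, 0 of the 43 genes were marked as significant in each comparison, where 653, 6 and 729 genes were marked with age, for GW8510 over aged vehicle and for GW8510 over young vehicle. The smallest adjusted p of the 43 genes in the authors' deposited tables was 0.0580, 0.998 and 0.124 in the same order. Reads could be shared with near copies, and only copies with a symbol named after a member were looked up. The pseudogenes so named had at most 8 counts in all libraries together, and Psme2b had 18. Copies under other names were not counted, and few counts on a copy do not show that none of its reads went to the member. Where counting did not use strand, which is not stated, reads of neighbours on the opposite strand could not be told apart from those of the members they overlap. Psmc3 overlaps Slc39a13 (20.9 CPM), Psme1 overlaps Emc9 (20.4 CPM), Psmd13 overlaps Sirt3 (18.96 CPM) and Psmb7 overlaps Nek6 (15.7 CPM). Psma3 overlaps 3110056K07Rik (4.26 CPM), and the neighbours of Psmd5 (Cutal, 0.225 CPM) and Psmd1 (Htr2b, 0.199 CPM) were at low levels. Psma2 overlaps AW209491 (13.8 CPM) on the same strand, which strand cannot resolve.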

How the data were processed

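The deposited tables, 1 for each pair of groups, hold expected counts per gene and library that the authors did not normalize, per the file headers, and TPM values made by the authors. The authors' own ratio (fold), log2 ratio and p-value for each pair of groups were also deposited. Per the submitters' processing notes, GRCm38, CASAVA, HISAT2, StringTie, RSEM, DESeq2 and edgeR were used. Their roles and versions, the annotation and the strand setting are not given in the sources used here. Of the expected counts 91.4% were whole, and all were rounded.

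Genes were filtered with filterByExpr (14384 kept) and scaled by TMM. All 9 libraries entered 1 quasi-likelihood fit in edgeR 4.0.16 under R 4.3.3, and two-sided p-values were adjusted by Benjamini-Hochberg over all genes tested in a comparison, with a threshold of 0.05. The SE of a log2 fold change is its size divided by the root of the F statistic. DESeq2 1.42.0, limma-voom 3.58.1, other scalings, no filter, a replicate block and leaving out each library were alternatives. Genes named are, per comparison, the 10 with the smallest p, and the highest and lowest mean TPM over 9 libraries of each functional group. Members and lists were chosen with earlier results of these data known. Coordinates are from GENCODE M21 (GRCm38) and promoters from RefSeq. The code was tested on simulated data. The values of 1 gene of the ubiquitin list are not reported here.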

Additional observations from a re-analysis of the deposited data

How the results depend on the processing

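No proteasome gene passed the threshold in any comparison under the alternatives run, other than Psmd8 with age in DESeq2 (1 gene). The count of all genes past the threshold moved most. With age it was 175, and 699 without a filter, 50 with only the 6 libraries compared, 974 with DESeq2, and 19 to 148 when 1 library was left out. For GW8510 over aged vehicle it was 0, and 5 without a filter, 10 with DESeq2 and 0 to 2 when 1 library was left out. For GW8510 over young vehicle it was 108, and 553 without a filter, 469 with only the 6 libraries compared, 870 with DESeq2, and 25 to 595 when 1 library was left out, the highest count being that without aged vehicle library 4. The libraries whose removal moved a count by over 1.5 times were, with age, young vehicle 2 (48 genes), 3 (19) and 4 (48), aged vehicle 1 (40) and aged GW8510 3 (35). For GW8510 over aged vehicle it was aged vehicle 3 (2), and for GW8510 over young vehicle they were young vehicle 2 (63), 3 (27) and 4 (42), aged vehicle 4 (595) and aged GW8510 1 (38) and 3 (25).

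The median log2 fold change of the 43 genes lay between 0.16 and 0.65 with age and between -0.50 and -0.017 for GW8510 over aged vehicle when 1 library was left out, and in both comparisons the value nearest 0 was that without aged vehicle library 4. Leaving out that library together with RLE factors or library totals was chosen after seeing the data. It gave medians of 0.17 and 0.10 with age, -0.012 with RLE factors for GW8510 over aged vehicle, 158 and 97 genes past the threshold with age, and 603 and 515 genes for GW8510 over young vehicle.

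Alternatives were counted for 42 fitted values of the named genes, which do not cover every named gene in every comparison. Turns of sign outside these 42 values are not in the count. For GW8510 over aged vehicle, 4 of all 43 genes were above 0 with all libraries and 20 without aged vehicle library 4. Of the 714 alternative values counted, 704 kept their direction and their side of the threshold and 9 turned sign. Of these, 8 crossed 0 when 1 library was left out and 1 with the replicate block. With age, Psmd1 lay between -0.11 and 0.75, Psmf1 between -0.047 and 0.18, Psme1 between -0.16 and 0.027 and Psmd9 between -0.11 and 0.14, each with its sign turned without aged vehicle library 4. Psmd9 was also at 0.099 without young vehicle library 4. Leaving aside the replicate block, Psmg2 lay between -0.021 (without young vehicle library 2) and 0.25. With that block Psmg2 was lower still, as given below. For GW8510 over aged vehicle, Psmd2 lay between -1.06 and 0.059 and Psmd4 between -1.10 and 0.033, with the value above 0 being that without aged vehicle library 4. The cause of these changes was not tested.

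The labels do not say whether a shared replicate number pairs libraries, and the main fit used no pairs. Deviations from the group mean were correlated between libraries of different groups, which cannot decide whether a shared number marks a shared origin. The correlations of the 7 same-numbered pairs lay between -0.209 and 0.138, and 1 of the 8 libraries with a shared number correlated best with its own number. With the replicate number as a block, 5, 0 and 8 genes passed in the 3 comparisons, with 0 of the 43, the medians were 0.40, -0.32 and 0.072, and Psmg2 was at -0.12 with age.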
